A study of Homo sapiens with 4 samples.

Results

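Circular RNA made from long non-coding RNA (lncRNA) genes was examined in a radiation-resistant breast cancer line with and without knockdown of the splicing regulator HNRNPL. A circular RNA arises when the end of an exon or retained segment is joined backwards to an upstream start, and each such back-splice position is called a circle here. The set was chosen by name. It holds exon and intron circles outside the mitochondrial genome that have at least 1 count and a single host gene, where the host name begins with LINC, SNHG or ENSG, or ends in -AS1, -AS2, -DT, -IT1 or, after MIR and digits, HG. MIR names with more than digits before HG, such as MIR4435-2HG, were kept as well (91 circles). By this rule 5152 of 190152 circles with a count were members (2.71%), from 1804 host genes. They held 30199 of 1702290 counts (1.77%). The comparison circles, 132849 in number from 8405 hosts, are all other exon and intron circles that name a single gene. They include 882 circles (4950 counts) from 139 hosts whose deposited gene type is lncRNA but whose names fall outside the rule.

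The 4 libraries came from MDA-MB-468, an established epithelial breast cancer line, in a derivative that had received 50 Gy of radiation in fractions. All 4 therefore share the radioresistant background, and no unirradiated cells are in the comparison. Controls (shCtrl, genotype WT in the labels) and knockdowns (shHNRNPL, stable) had 2 biological replicates each, and the labels name a single stable hairpin. Total RNA was copied by the Induro reverse transcriptase from random hexamers, amplified by phi29 polymerase and read on a Nanopore instrument. No circle named HNRNPL as its gene, so the knockdown rests on the labels. Nothing in the labels says whether the replicates were separate cultures, so p-values measure the spread between these libraries.

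Long non-coding RNAs are transcripts without a long open reading frame, many of them spliced and polyadenylated like mRNA. Names tell how a gene lies or what it carries. An antisense gene (-AS) runs opposite a named gene, a divergent transcript (-DT) starts near the promoter of a named gene in the other direction, and host genes carry microRNAs (MIR-HG) or small nucleolar RNAs (SNHG) in their introns. LINC genes lie between other genes, and ENSG names are annotated genes that have not received a symbol. HNRNPL is known to bind CA-rich RNA and to alter the use of nearby splice sites, and back-splicing uses the same splice sites as linear splicing.

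The control libraries held 472428 (replicate 1) and 556578 counts (replicate 2), and the knockdown libraries 282737 and 390547. Levels below are counts per 100000 counts of a library. The fitted log2 differences were scaled by TMM instead, so a level and a fit can differ in size or sign. A library count of 0 allows up to 3 counts, which is between 0.539 and 1.06 per 100000, and this limit covers counting error only. Control replicate 1 stood apart from the rest. Intron circles took 19.7% of its counts against 9.93% to 10.6% in the other 3 libraries, antisense circles 6.79% against 2.38% to 2.69%, and mitochondrial circles 0.943% against at most 0.107%. Circles of the epithelial host genes EGFR, MET, EPCAM, CDH1 and ESRP1 were present in all 4 libraries, and those of the fibroblast and leukocyte genes COL1A2, COL3A1, PDGFRB, PTPRC and CD74 had 0 counts in each.

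By name, 2488 circles came from 1071 ENSG hosts (36.3% of the members' counts) and 1223 from 369 antisense hosts (37.1%). A further 794 came from 210 LINC hosts (16.6%), 410 from 131 divergent transcripts (6.81%), 222 from 18 microRNA host genes (2.90%) and 15 from 5 SNHG genes (0.301%). No host name ended in -IT1. The deposited gene type was lncRNA for 4890 circles (94.9%), which held 97.0% of the counts. The name rule also admitted 118 circles of protein-coding type and 80 of processed pseudogene type. Of the hosts, 707 matched a gene of the RefSeq table for GRCh38.p14 by symbol, and 703 of these are lncRNA genes there. The rule leaves out 13445 circles (131690 counts) that name several genes of which at least 1 has such a name, and 976 circles called antisense to such a gene.

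The microRNA host genes show what these hosts otherwise produce, so mature products of the most counted of them are printed (the -5p arms and the miR-5583 arms of MIR924HG are left out). MIR924HG was the most counted by the naming rule, and MIR222HG, MIR29B2CHG and MIR4435-2HG were added after their counts had been seen. Sequences are from RefSeq (GRCh38.p14), 5′ to 3′, with the seed (bases 2 to 8) in capitals.
hsa-miR-221-3p: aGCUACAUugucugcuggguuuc
hsa-miR-222-3p: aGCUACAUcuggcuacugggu
hsa-miR-29c-3p: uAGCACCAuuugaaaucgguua
hsa-miR-29b-3p: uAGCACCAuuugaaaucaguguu
hsa-miR-924: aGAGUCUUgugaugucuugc
hsa-miR-4435: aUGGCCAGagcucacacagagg
The -3p arms of MIR222HG share the seed GCUACAU, and those of MIR29B2CHG share AGCACCA. Both pairs are widely studied, the former as repressors of the cell cycle inhibitor CDKN1B and the latter as repressors of collagen genes. All 18 microRNA hosts had at least 1 RefSeq mature microRNA inside their span (56 different ones). None of the 222 member circles spanned a mature microRNA. The rule bears on that zero, because a circle over a microRNA gene tends to carry that gene's name too. Among circles that name several genes, 36 named a microRNA host of this set, 11 of them (23 counts) spanned a mature microRNA, and all 11 also named a microRNA gene. In MIR222HG the nearest member circle ended 23584 nt from hsa-miR-221-3p and 22730 nt from hsa-miR-222-3p. In MIR29B2CHG the nearest lay 3643 nt from hsa-miR-29c-3p and 4228 nt from hsa-miR-29b-3p. In all members, the only annotated microRNA hairpin inside a circle's block was MIR12133, in an ENSG00000288736 circle with 3 counts (0 and 0 in the control libraries, 1 and 2 after knockdown).

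Circles of lncRNA hosts were mostly intron circles, with few exon blocks, and most were seen in 1 library. Of the members, 4404 (85.5%) were of intron type, meaning that the caller did not place both ends on annotated exons, and 748 were of exon type. Intron circles took 81.7% and 79.0% of the members' counts in the control libraries and 85.2% and 85.5% after knockdown, a difference of 5.04 percentage points between the group means that was 1.74 without the host RAP2C-AS1. For other single-gene circles the same shares were 21.2% and 9.96%, and 8.74% and 8.86%. The difference was between 60.5 and 76.7 percentage points in the 4 libraries and had the same sign in each. An exact sign-flip permutation test over the 4 libraries gives p = 0.125, the smallest this design allows, and 0.146 after adjustment over the 7 such comparisons made.

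**Figure D1:**
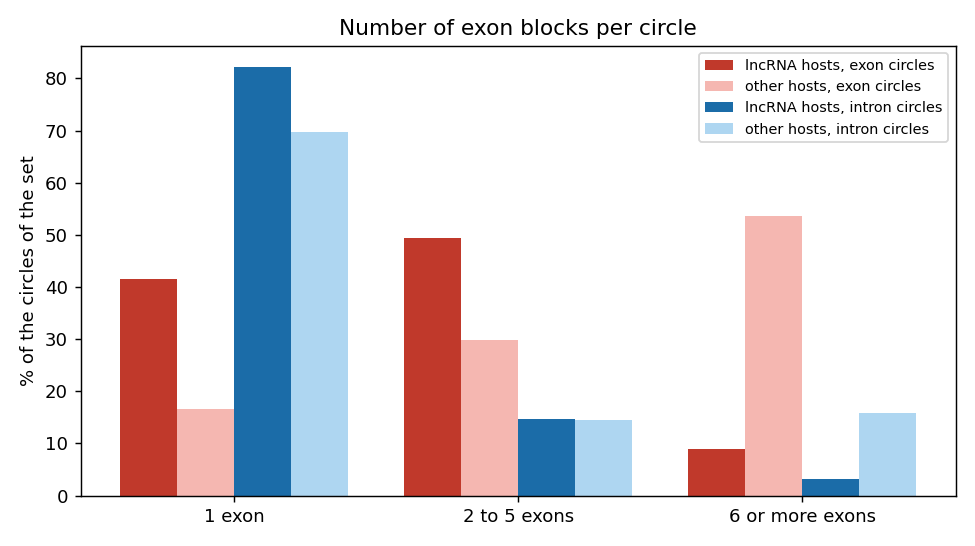
Share of circles (y axis, percent of the circles of each set) by number of exon blocks (x axis), for exon and intron circles of lncRNA hosts and of other hosts. Among exon circles, 8.96% of those from lncRNA hosts had 6 or more blocks against 53.6% from other hosts.

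A block is a contiguous stretch of a circle, the long-read counterpart of an exon. Among exon circles, 41.6% of the lncRNA set had a single block and 8.96% had 6 or more, against 16.6% and 53.6% of other hosts. Among intron circles 82.1% had a single block, against 69.7%. Within libraries, the count-weighted median block number of exon circles was lower in lncRNA hosts than in other hosts, by -3 and -3 in the control libraries and -2 and -2 after knockdown. Their median length differed by -101 and -391 nt in the control libraries and -370 and -370 nt after knockdown. Their counts per circle differed by -1.34 and -3.69, then -2.68 and -2.95. Weighted by counts, the median intron circle of lncRNA hosts was longer than that of other hosts by 11 and 450 nt in the control libraries and by 270 and 387 nt after knockdown. The weight of RAP2C-AS1 bears on this: in both knockdown libraries the weighted median is 1938 nt, the length of its main circle, and with each circle taken once the median was 1491.5 nt for lncRNA hosts and 1564 nt for other hosts. Intron circles of lncRNA hosts had more counts per circle, by 0.199 and 2.17 in the control libraries and 2.07 and 2.34 after knockdown. Without RAP2C-AS1 they had 3.08 and 4.45 counts per circle, then 2.66 and 3.01, beside 3.14 and 3.75, then 2.06 and 2.36 for other hosts, so that control replicate 1 lay on the other side. The 5 comparisons of block number, length and counts per circle given so far, with all hosts in, each had the same sign in 4 of 4 libraries and the smallest possible p of 0.125 in the exact sign-flip permutation test (0.146 adjusted). For block number of intron circles, the difference was 0, -1, 0 and 0 (exact permutation test, p = 1).

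Splice letters at the back splice differed little between the host kinds. AG-GT, the letters that flank canonical splice sites, were listed for 88.4% of exon circles and 74.2% of intron circles from lncRNA hosts, and for 90.1% and 76.8% from other hosts. Several block structures were listed for 22.3% of exon circles from lncRNA hosts and for 13.2% of those from other hosts. Thin detection marked the set. Of the members 3713 (72.1%) were seen in 1 library and 178 (3.45%) in all 4, against 55.1% and 10.1% of other single-gene circles. A total of 809 had a single count. Circles with 1 to 9 counts held 45.5% of the members' counts and 26.2% of the others', and 283 members reached the 10 counts over the libraries that a test required. These detection shares were not matched by circle type. Of the 5152 members 4404 were of intron type, against 42041 of the 132849 other circles. The part of that mix in the detection shares was not tested.

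The lncRNA share of single-gene counts was 2.67% and 1.84% in the control libraries and 2.20% and 2.33% after knockdown. The control values enclosed both knockdown values. The control mean was 2.25% ± 0.587 and the knockdown mean 2.27% ± 0.0964 (SD, n = 2 each; exact two-sided permutation test, p = 1). The hosts behind that share were not in the same proportions. RAP2C-AS1 held 6.69% and 20.4% of the members' counts in the control libraries and 31.1% and 31.4% after knockdown, and without this host the knockdown mean share was 0.410 percentage points below the control mean. Among exon circles alone, lncRNA hosts took 0.633% and 0.434% of counts in the control libraries and 0.363% and 0.379% after knockdown. Among intron circles they took 9.54% and 12.9%, then 18.0% and 18.8%. Both knockdown libraries lay below both controls in the exon share and above both in the intron share. An exact permutation test of 2 against 2 libraries cannot go below p = 0.333.

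**Figure D2:**
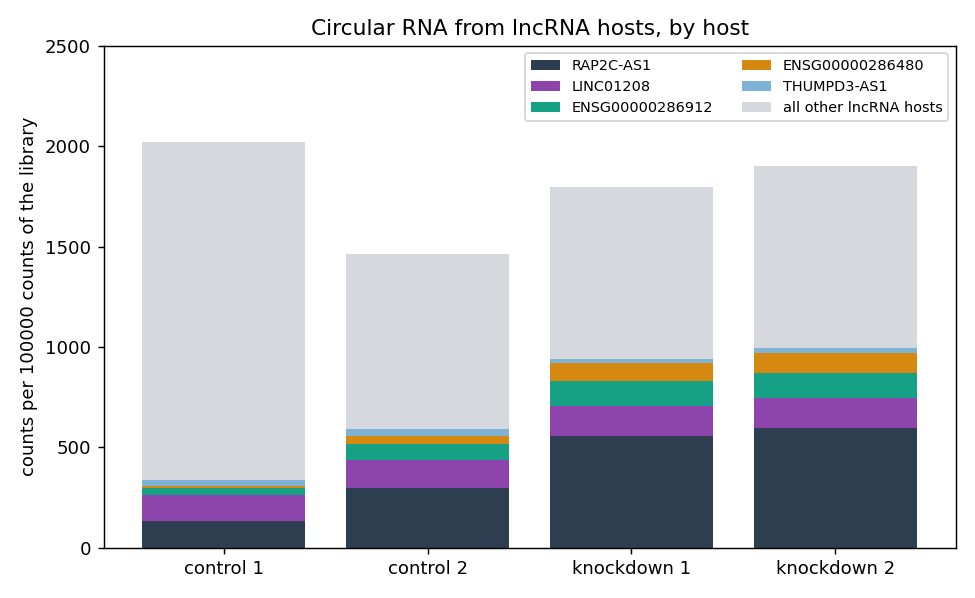
Counts from lncRNA hosts per 100000 counts (y axis) in each library (x axis), stacked by host, with the 5 most abundant hosts apart and the rest in grey. RAP2C-AS1 takes 135 in control 1 and 597 in knockdown 2, while the grey part is largest in control 1.

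The count-weighted median length of member circles was 1661 and 1659 nt in controls and 1938 nt in both knockdowns, which is the length of the main RAP2C-AS1 circle. The number of different member circles expected at the depth of the smallest library was 2223 and 1130 in the control libraries and 1304 and 1409 after knockdown (exact permutation test, p = 1). Control replicate 1 held the highest value, and without it the knockdown mean was 227 circles above the remaining control.

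Counts were concentrated in few hosts, and in several of the most counted hosts they fell on a long block shared by many circles. In all, 26 of 1804 hosts held 50% of the members' counts, while 962 hosts had a single circle. RAP2C-AS1, antisense to the gene of the small GTPase RAP2C, lay at chrX:132218507-132432811 on the plus strand and held 6211 counts in 22 circles, all of intron type. It had 135 and 298 counts per 100000 in the control libraries and 558 and 597 after knockdown. Both knockdown values lay above both controls, and the controls differed from each other by more than the knockdowns did. The host was higher in knockdown by 1.67 ± 0.62 (SE) on the log2 scale, which did not pass the threshold (edgeR quasi-likelihood test, Benjamini-Hochberg adjusted p = 0.254). Leaving out control replicate 1 gave 1.13, and leaving out control replicate 2 gave 2.69. With all 4 libraries the outcome depended on the method. For this host DESeq2 gave an adjusted p of 0.0192, and edgeR with scaling by library size alone gave 0.136. A single circle, chrX:132281095-132283032, of 1938 nt in 1 block and of intron type, held 91.0% of these counts, and the same block was part of 9 circles with 98.8%. Circles of RAP2C itself had 7 and 5 counts in the control libraries and 1 and 7 after knockdown.

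ENSG00000286912, on the minus strand of chromosome 7 within the span of ACTR3C, and ENSG00000286480, on the plus strand of chromosome 2 within the span of WDPCP, had the same form. In ENSG00000286912 a block of 2219 nt, chr7:150233035-150235253, was part of 11 of 13 circles with 99.7% of the counts. It was used mostly alone or with a second block of 53 nt that ended at 150237608. The host had 36.2 and 81.6 counts per 100000 in the control libraries and 127 and 124 after knockdown. The log2 difference was 1.34 ± 0.53 (SE; edgeR adjusted p = 0.272). It fell to 0.80 when control replicate 1 was dropped, and rose to 2.38 when control replicate 2 was dropped. In ENSG00000286480 a block of 1109 nt, chr2:63196122-63197230, carried 99.6% of the counts, mostly joined to a second block of 96 nt. Its levels were 7.41 and 39.0 in the control libraries and 92.0 and 99.6 after knockdown (log2 difference 2.25 ± 0.70 SE, edgeR adjusted p = 0.170; 1.47 without control replicate 1 and 4.28 without control replicate 2). In both hosts the knockdown values did not overlap the controls, control replicate 1 was lowest, and the edgeR test was not passed. DESeq2 gave an adjusted p of 0.127 for ENSG00000286912 and 0.0183 for ENSG00000286480. In edgeR these were 0.206 and 0.148 with scaling by library size alone, and 0.116 and 1.12e-04 with the replicate number in the model. Each circle has a deposited strand, but whether reads were counted by strand is not given in the sources used here. A mix of reads from a gene and from a partner on the other strand was not tested.

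Among the other abundant hosts the knockdown was not uniformly higher, and some were built of short blocks. The most used block had 349 nt in LINC00630, 187 nt in SUCLG2-DT, 168 nt in RNF217-AS1 and 58 nt in ENSG00000229321, and in each it was part of circles with at least 92.1% of the host's counts. THUMPD3-AS1 had 29.6 and 34.7 counts per 100000 in the control libraries and 19.8 and 24.6 after knockdown, 86.2% of them in a 2411-nt exon circle of 1 block at chr3:9388087-9390497. GMDS-DT, the divergent transcript of the GDP-mannose dehydratase gene, had 24.6 and 18.1 in the control libraries and 11.7 and 9.22 after knockdown (log2 difference -0.71 ± 0.36 SE, edgeR adjusted p = 0.394). Its main circle had 3 blocks and 1788 nt. In both hosts the knockdown levels lay below both controls without passing the test. RNF217-AS1 had 15.2 and 17.1, then 11.7 and 10.5. For LINC00630 (27.3 and 15.1, then 11.3 and 16.6), SUCLG2-DT (18.6 and 12.4, then 18.7 and 16.9) and ENSG00000229321 (10.8 and 22.6, then 14.1 and 15.9) the groups overlapped. The fitted differences of THUMPD3-AS1, LINC00630, ENSG00000229321 and RNF217-AS1 were at most 0.25 in size and changed sign in at least 1 alternative.

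LINC01208 had the most circles of any lncRNA host, 132, of which 117 were of intron type. Its level was even, at 127 and 137 counts per 100000 in the control libraries and 145 and 150 after knockdown (log2 difference 0.46 ± 0.44 SE, edgeR adjusted p = 0.656). Its circles lie on the minus strand of chromosome 3. The highest coordinate of the RefSeq gene is 176635532. The most used blocks lie at higher coordinates, which is upstream on that strand, in the longer gene model of the deposited table. A block of 1509 nt, chr3:176720477-176721985, was part of 36 circles with 66.1% of the counts. It formed a circle alone, and with a second block, chr3:176743999-176745552, a circle of 3063 nt.

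These circles were the most counted of the host, and their values differed between the groups in opposite directions. They were singled out after their values had been seen. The 1-block circle of 1509 nt had 187 and 194 counts in the control libraries and 73 and 83 after knockdown, which is 39.6 and 34.9, then 25.8 and 21.3 per 100000. The 2-block circle of 3063 nt had 86 and 106 counts in the control libraries and 137 and 195 after knockdown, or 18.2 and 19.04, then 48.5 and 49.9 per 100000. Within each library, the ratio of the 2-block to the 1-block circle was 0.460 and 0.546 in the control libraries and 1.88 and 2.35 after knockdown. The log2 ratio was higher in knockdown by 2.07, against SDs of 0.176 in controls and 0.229 in knockdowns (n = 2 each), with p = 0.333 in an exact permutation test, the smallest possible. Leaving out any 1 library kept the difference between 1.90 and 2.23. Taken alone, neither circle passed the test: the 2-block circle differed by 1.35 ± 0.35 (SE; edgeR adjusted p = 0.179) and the 1-block circle by -0.74 ± 0.38 (SE; edgeR adjusted p = 0.430). The circle made of the second block alone, chr3:176743999-176745552, had 27 and 51 counts in the control libraries and 8 and 16 after knockdown.

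**Figure D3:**
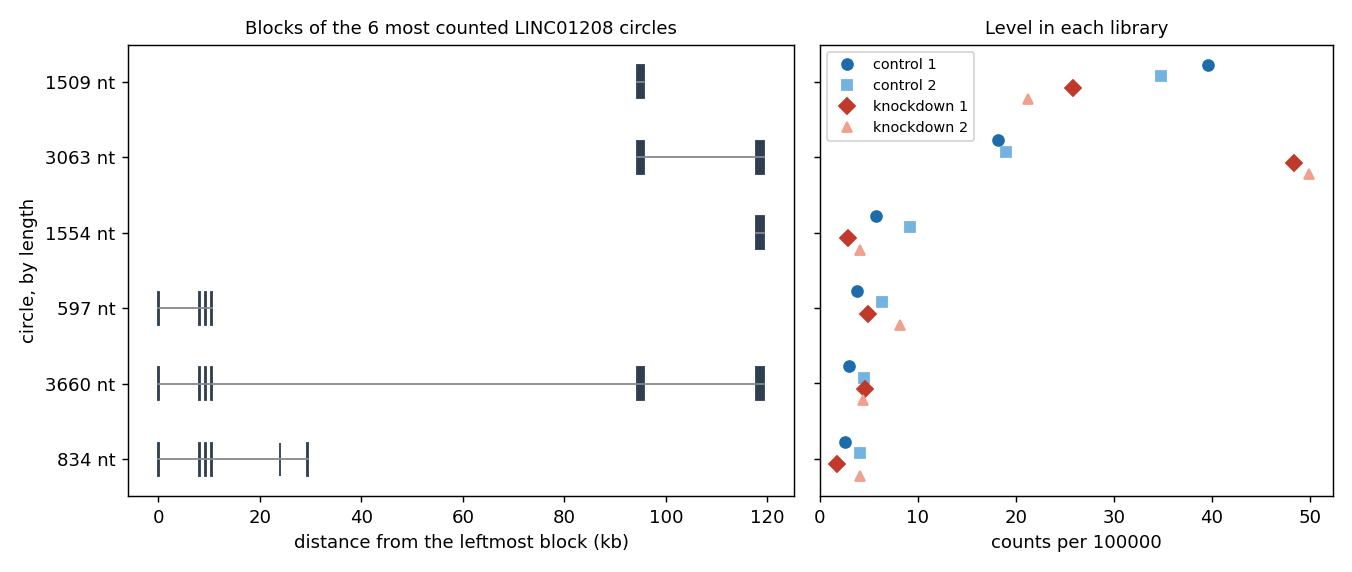
Left, the blocks of the 6 most counted LINC01208 circles, drawn to scale by distance from the leftmost block (x axis, kb), with 1 circle a row named by its length. Right, the level of each circle in counts per 100000 (x axis) in each library. The 1509-nt circle lies at 34.9 and 39.6 in the control libraries and 21.3 and 25.8 after knockdown, and the 3063-nt circle at 18.2 and 19.04, then 48.5 and 49.9.

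The use of circles within hosts was tested across all hosts with at least 2 tested circles (edgeR diffSpliceDGE, F test per host, added after seeing the data). Of 34 lncRNA hosts tested, 0 passed after adjustment and 3 had an unadjusted p under 0.05, where over all 2327 hosts 4.08% passed after adjustment and 17.7% without. LINC01208, with 32 tested circles, had the smallest p among lncRNA hosts (0.00518, edgeR adjusted p = 0.0849). The others were ENSG00000253194 and MAL2-AS1. In ENSG00000253194, chr6:119137185-119141146 had 10 and 0 counts in the control libraries and 0 and 0 after knockdown. Its other tested circle, chr6:119177433-119179155, had 0 and 0, then 5 and 6. Each reached the 10 counts through the group where it was high. In MAL2-AS1 the circle with the smallest p, chr8:119221569-119224127, had 16 and 0, then 0 and 0.

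Host genes were compared between the groups on counts summed over their circles. Of the 1804 lncRNA hosts 445 reached 10 counts and were tested among 5909 hosts in all, so the hosts below are those that sequencing covered. In bulk RNA, fewer cells with a circle and less of it per cell cannot be told apart. LINC01340, TICAM2-AS1 and ENSG00000227227 rose in knockdown and none fell. That is 0.674% of the lncRNA hosts tested, against a background of 1.52% of all hosts called higher and 0.0508% called lower. At an unadjusted p under 0.05, 23 lncRNA hosts (5.17%) were higher and 26 (5.84%) lower, against backgrounds of 8.11% and 6.90%. The groups did not overlap in 67 lncRNA hosts with higher knockdown (15.1%, background 15.9%) and in 127 with lower knockdown (28.5%, background 36.1%). The median log2 difference was -0.61 over lncRNA hosts and -0.26 over all hosts tested. Scaling by library size alone moved these to -1.02 and -0.68.

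**Figure D4:**
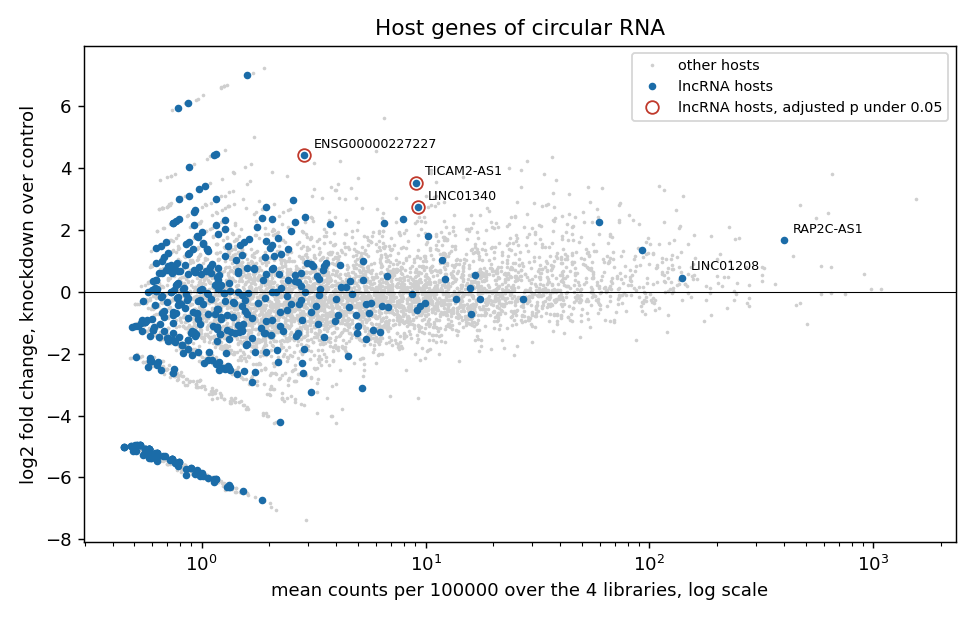
Log2 difference, knockdown over control (y axis), against mean counts per 100000 over the 4 libraries (x axis, log scale) for all tested hosts, with lncRNA hosts in blue and the 3 with an adjusted p under 0.05 ringed. The points below -4 are mostly hosts with 0 counts in both knockdown libraries.

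LINC01340, an intergenic lncRNA gene at chr5:97504696-97671051, had 10 and 20 counts in the control libraries and 39 and 69 after knockdown. Per 100000 this is 2.86 ± 1.04 (SD, n = 2) and 15.7 ± 2.74 (SD, n = 2). The log2 difference was 2.73 ± 0.48 (SE; edgeR adjusted p = 0.0305). Dropping control replicate 1 lowered it to 2.32, and dropping control replicate 2 raised it to 3.48. Each knockdown library was above each control. Most of its 138 counts (124) came from 1 exon circle, chr5:97525792-97530300, with 7 blocks in 465 nt and 7 and 17 counts in the control libraries and 37 and 63 after knockdown. It is a multi-exon circle in a set where 8.96% of exon circles have 6 or more blocks.

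TICAM2-AS1, antisense to the gene of the Toll-like receptor adaptor TICAM2, had 16 and 2 counts in the control libraries and 39 and 73 after knockdown. Its control mean was 1.87 ± 2.14 per 100000 and its knockdown mean 16.2 ± 3.46 (SD, n = 2 each; log2 difference 3.53 ± 0.66 SE, edgeR adjusted p = 0.0367). Leaving out control replicate 1 gave 5.57, and leaving out control replicate 2 gave 2.86. Its 14 circles were all of intron type. The most counted circle, chr5:115614060-115616119, 2060 nt in 1 block on the plus strand, also lies within the RefSeq spans of TMED7 and TMED7-TICAM2. It had 0 and 1 counts in the control libraries and 13 and 23 after knockdown, a ratio of pooled rates of 55.0 (95% exact interval 9.26 to 2233, counting error only). The other 3 tested circles of this host overlap it: chr5:115614409-115615488 had 2 and 0, then 10 and 17 counts, chr5:115614310-115615503 had 0 and 1, then 6 and 11, and chr5:115613544-115616133 had 0 and 0, then 4 and 7.

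ENSG00000227227, on chromosome 2, had 2 and 1 counts in the control libraries and 12 and 26 after knockdown, spread over 11 circles. The ratio of pooled rates was 19.4 (95% exact interval 6.14 to 98.0), and the log2 difference was 4.41 ± 0.83 (SE; edgeR adjusted p = 0.0367). All 3 calls ended when only library sizes were used for scaling (edgeR adjusted p = 0.0579, 0.105 and 0.0861 for LINC01340, TICAM2-AS1 and ENSG00000227227), with the newer dispersion method of edgeR, and without knockdown replicate 2. Leaving out control replicate 1 or 2 gave 74 or 126 called lncRNA hosts, with 22.2% or 35.8% of all hosts called, and the lone control was then assumed to vary like the knockdown pair.

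Below these stood hosts that did not pass. ENSG00000255649 had 12 and 16 counts in the control libraries and 32 and 37 after knockdown (log2 difference 2.22 ± 0.47 SE, edgeR adjusted p = 0.0511). MAL2-AS1 had 20 and 12, then 22 and 69 (2.36 ± 0.53 SE, edgeR adjusted p = 0.0643; 1.61 without knockdown replicate 2). Circles of MAL2 itself, which encodes a membrane protein of apical transport and lies on the other strand, had 27 and 48 counts in the control libraries and 65 and 97 after knockdown (2.01 ± 0.41 SE, edgeR adjusted p = 0.0434). Each circle has a deposited strand, but stranded counting is not known, and a mix of circles of these overlapping genes was not tested. ENSG00000255252 had 0 counts in both control libraries and 5 and 18 after knockdown, at least 5.43-fold higher with a floor of 3 counts per library (edgeR adjusted p = 0.0762).

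**Figure D5:**
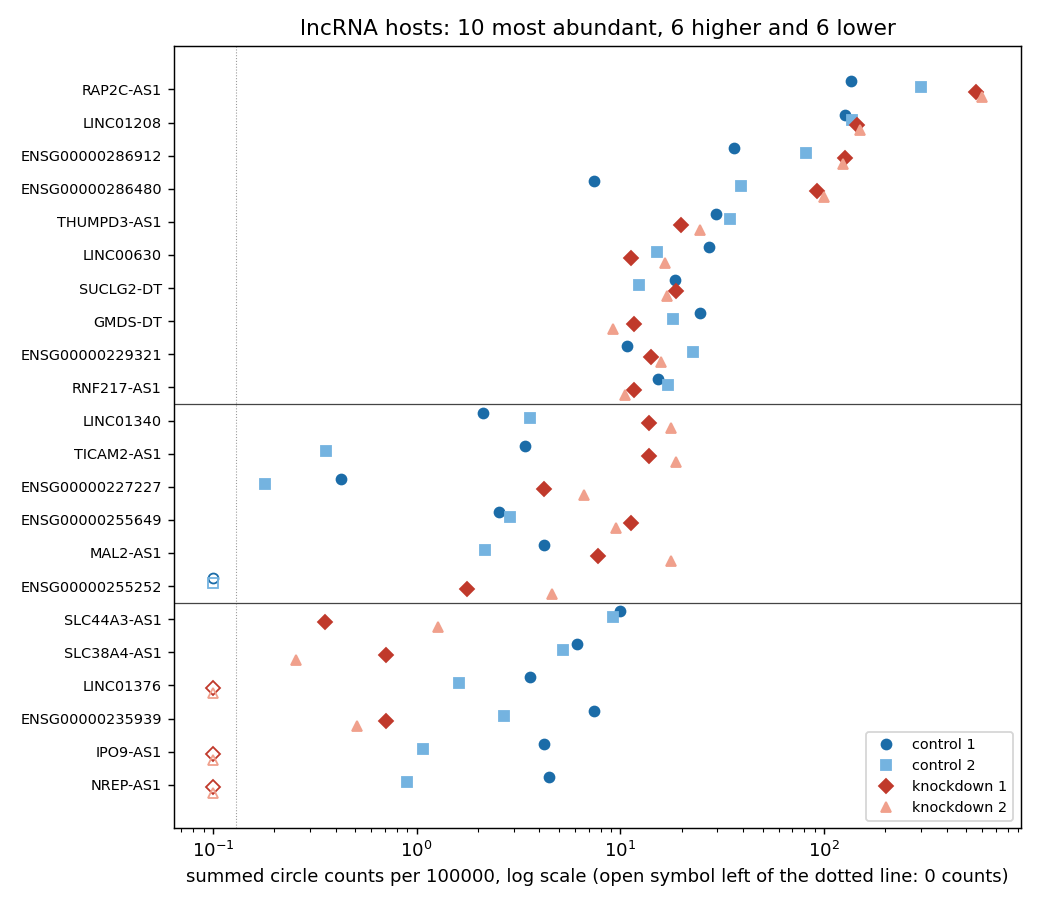
Summed circle counts per 100000 (x axis, log scale) in each library for the 10 most abundant lncRNA hosts, the 6 higher and the 6 lower hosts with the smallest p-value and no overlap between groups. Open symbols left of the dotted line mark 0 counts. The 6 higher and 6 lower hosts were chosen for groups that do not overlap, so their separation is a description.

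On the lower side, SLC44A3-AS1, antisense to a choline transporter-like gene, had 47 and 51 counts in the control libraries and 1 and 5 after knockdown. Its control mean was 9.56 ± 0.555 per 100000 and its knockdown mean 0.817 ± 0.655 (SD, n = 2 each; log2 difference -3.10 ± 0.67 SE, edgeR adjusted p = 0.0533). This was -4.37 without knockdown replicate 2, and -2.28 when circles naming several genes were given to the gene named first. SLC38A4-AS1, antisense to an amino acid transporter gene, had 29 and 29, then 2 and 1. Its pooled rate was 12.6 times higher in controls (95% exact interval 4.12 to 63.1, edgeR adjusted p = 0.0985). Its log2 difference of -3.25 was -4.02 without knockdown replicate 1 and -1.36 (edgeR adjusted p = 0.292) with circles given to the gene named first. The most counted circle had 4 and 19 counts in the control libraries for SLC44A3-AS1, and 0 and 8 for SLC38A4-AS1. Summed over all circles of the host, control replicates agreed closely for both. They did not for the rest: ENSG00000235939 had 35 and 15 counts in the control libraries and 2 and 2 after knockdown (log2 difference -2.64, and -1.95 without control replicate 1), and LINC01376 (17 and 9), IPO9-AS1 (20 and 6) and NREP-AS1 (21 and 5) had 0 in both knockdown libraries. The latter were at least 2.85-fold, 2.90-fold and 2.92-fold lower in knockdown (edgeR adjusted p = 0.182, 0.203 and 0.214). In all 4 of these hosts control replicate 1, the library with the high intron share, was the higher control, and the part of that library's composition in the result was not tested.

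Antisense and divergent hosts were set beside the gene they are named for. Of 146 tested, 99 had a partner that was tested too. NREP, the partner of NREP-AS1, had 27 and 57 counts in the control libraries and 2 and 1 after knockdown (log2 difference -3.80 ± 0.82 SE, edgeR adjusted p = 0.0534). IPO9, the importin gene beside IPO9-AS1, had 160 and 131, then 61 and 71 (-0.20 ± 0.35 SE, edgeR adjusted p = 0.835). THUMPD3 had 12 and 27 counts in the control libraries and 17 and 32 after knockdown. Its log2 difference was 1.21 ± 0.56 (SE), beside -0.23 for THUMPD3-AS1, and neither passed. SLC44A3 had 18 and 4 counts in the control libraries and 0 and 2 after knockdown (-2.47 ± 1.51 SE, edgeR adjusted p = 0.467). Further partners of named hosts had log2 differences of -0.35 (GMDS), -0.20 (RNF217), 0.07 (SUCLG2), 0.61 (CCNT2) and 1.39 (CYP1B1). None of these passed. The pairs described are those of hosts named in the text, and no test of the pairing was made.

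Single circles gave no call. Of 283 member circles tested among 21576, 0 passed the edgeR quasi-likelihood test after adjustment, as in the whole table (0.0% in each direction). The smallest adjusted p among members was 0.0901. At an unadjusted p under 0.05, 27 members were higher (9.54%, background 9.42%) and 9 lower (3.18%, background 4.00%), and DESeq2 called 12 members, all higher, with 4.88% of all circles called in that fit. The groups did not overlap in 52 members with higher knockdown (18.4%, background 23.2%) and in 47 with lower knockdown (16.6%, background 22.9%). The median log2 difference was -1.14 over members and -0.39 over all tested circles. When 5 counts in each of 2 libraries were required, these were 0.09 and 0.01.

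Among the higher circles with the smallest p, after those of TICAM2-AS1 and LINC01340, was the MAL2-AS1 circle chr8:119243534-119244914, with 1 and 5 counts in the control libraries and 13 and 34 after knockdown. ENSG00000235743 had a 5-block circle, chr6:23394804-23404142, with 2 and 8, then 16 and 24. On the lower side a 1-block circle of LINC00536, chr8:116087470-116088391, had 14 and 21 counts in the control libraries and 1 and 0 after knockdown, a pooled rate 22.9 times higher in controls (95% exact interval 3.85 to 930). The remaining lower circles named were of exon type. These were 3-block circles of SLC44A3-AS1 (4 and 19, then 0 and 0) and CYP1B1-AS1 (17 and 38, then 3 and 8), a 2-block circle of CCNT2-AS1 (38 and 27, then 5 and 7) and a 4-block circle of LINC01278 (29 and 33, then 6 and 9). None of these passed after adjustment (edgeR adjusted p between 0.122 and 0.286).

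The calls by name class stand beside 1.52% of all hosts called higher and 0.0508% called lower. Among 227 tested ENSG hosts 1 rose and 0 fell after adjustment, and the same held for 104 antisense hosts and 56 LINC hosts. In the 42 divergent, 13 microRNA and 3 small nucleolar RNA hosts 0 passed. The median log2 difference was -0.73 for antisense hosts, -0.80 for divergent transcripts, -0.68 for ENSG hosts, -0.43 for LINC hosts, -0.32 for microRNA hosts and -0.63 for SNHG hosts, beside -0.26 for all hosts. The order of lncRNA hosts and all hosts is not stable: with 5 counts in each of 2 libraries required, the medians were -0.01 and -0.13, and without control replicate 1 they were 0.26 and -0.0035.

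Of the microRNA hosts, MIR222HG had 10.2 and 7.19 counts per 100000 in the control libraries and 3.89 and 2.05 after knockdown (log2 difference -1.24 ± 0.53 SE, edgeR adjusted p = 0.305). Its groups did not overlap. MIR29B2CHG had 15.5 and 8.98, then 3.54 and 9.99, and its main circle, a 2-block exon circle of 328 nt at chr1:207815929-207817414, had 43 and 36 counts in the control libraries and 2 and 18 after knockdown. MIR924HG (12.5 and 11.3, then 9.90 and 15.1) and MIR4435-2HG (14.2 and 5.93, then 7.07 and 7.68) had overlapping groups. None of these 4 hosts passed the test. SNHG31, the most counted small nucleolar RNA host, had 3.81 and 1.44, then 3.18 and 2.05.

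Few widely studied lncRNA genes were well covered. Of 34 such names that fit the rule 18 had a count and 12 were tested, and 0 passed with or without adjustment, where 1.52% and 0.0508% of all hosts were called higher and lower. Of these 12, 6 had a positive and 6 a negative difference, with a median of -0.19. The best covered were TTN-AS1 (13 and 18 counts in the control libraries, 12 and 11 after knockdown), NUTM2A-AS1 (20 and 6, then 11 and 13) and LINC-PINT (14 and 18, then 6 and 5), a p53-induced transcript. A second list holds 29 lncRNA genes whose names fall outside the rule. Of these 18 had a count and 15 were tested, and 0 passed with or without adjustment, with 7 positive and 8 negative differences and a median of -0.38. NEAT1, the scaffold of paraspeckles, had 83.0 and 37.2 circle counts per 100000 in the control libraries and 27.6 and 24.8 after knockdown (log2 difference -0.83 ± 0.41 SE, edgeR adjusted p = 0.387). MALAT1, a nuclear speckle RNA, had 52.7 and 30.7, then 32.5 and 34.1, and FTX had 26.04 in control replicate 1 and between 2.83 and 4.10 in the other libraries.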

How the data were processed

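Per the columns of the deposited table, circles were called with CIRI-long (version not given in the sources used here). Coordinates are on GRCh38.p14, per the submitters' processing notes, which also name DESeq2. The counts are the authors' deposited raw counts per back-splice position, whole numbers without normalization. A second deposited table of scaled values was not used. Amplified reads carry no molecular identifiers, so intervals and floors cover counting error only.

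Groups came from the sample titles. Circles, and hosts summed over circles that name a single gene, with at least 10 counts over the 4 libraries were tested with edgeR 4.0.16 (R 4.3.3; glmQLFit with its default dispersion, TMM, Benjamini-Hochberg adjustment over all features, threshold 0.05). SE was derived from the F statistic. Values per library were compared with exact permutation tests. The tests were tried on simulated data with known changes. At the dispersion estimated here some calls, mostly of circles, fell on unchanged features, and most of the known changes were missed. A host or circle that did not pass may therefore still differ. Replicate numbers are shared between groups. A check of same-numbered libraries gave r = 0.0706 over 4944 circles, so libraries were not paired in the main fit. Whether same-numbered libraries share a batch was not tested. MIR-HG names with more than digits before HG (such as MIR4435-2HG) were kept, and 91 member circles would leave under the strict wording. Alternatives were other scalings, filters, dispersions, DESeq2 1.42.0, a replicate block, exon circles alone, circles given to the gene named first, and leaving out each library.

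Named hosts are the 10 most abundant, those with an adjusted p under 0.05, the 6 higher and 6 lower with the smallest p among hosts whose groups do not overlap, the most abundant of each name class, and widely studied lncRNAs with at least 40 counts. Circles are the 8 most abundant and the 5 higher and 5 lower by the same rule. The members and lists were chosen with earlier results of these data known. CA repeats beside back splices were not analysed here.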

Additional observations from a re-analysis of the deposited data

How the results depend on the processing

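The difference in the lncRNA share of single-gene counts, 0.0152 percentage points (knockdown minus control), had no stable sign: it was -0.163 with exon circles only and -0.410 without RAP2C-AS1 (an alternative chosen after seeing the data), and leaving out 1 library gave -0.400 to 0.430. The difference in distinct circles at equal depth was -320 and -867 to 227 with 1 library left out. The group means of intron share and median length of member circles stayed higher in knockdown in every alternative run, but the separation of the groups did not hold. Without RAP2C-AS1 the differences were 1.74 percentage points and 127 nt, and with each circle taken once the length difference was 149 nt. The groups overlapped in each of these. Both length alternatives had p = 0.667 in the exact permutation test, where 0.333 is the smallest possible. For circles, with the share of all circles called in brackets, 0 calls became 12 with DESeq2 (4.88%), 5 with no count filter (0.248%), 13 with 5 counts in 2 libraries (11.99%), 19 with the replicate block (7.66%), 1 with exon circles only (2.79%), and 0 to 115 with 1 library left out: 74 without control replicate 1 (22.6%) and 115 without control replicate 2 (29.8%). For hosts, in the same form, 3 calls (1.57%) became 0 with library-size scaling (1.22%), 0 with the newer dispersion method (0.0%), 13 with no count filter (3.15%), 1 with 5 counts in 2 libraries (1.19%), 11 with the replicate block (5.30%), 1 with exon circles only (2.61%), and 0 to 126 with 1 library left out: 74 without control replicate 1 (22.2%), 126 without control replicate 2 (35.8%) and 0 without knockdown replicate 2 (0.288%). Giving circles to the gene named first left the count at 3. Where fewer circles or hosts enter, the number tested falls too; otherwise the cause was not tested. Sign changes among named hosts, none of which passed with all 4 libraries and TMM scaling, were these log2 differences. With 1 library left out, THUMPD3-AS1 ranged from -0.45 to 0.19 (0.19 without control replicate 2), RNF217-AS1 from -0.46 to 0.12 (0.12 without control replicate 2), LINC00630 from -0.57 to 0.098 (0.098 without control replicate 1, 0.025 without knockdown replicate 1) and ENSG00000229321 from -0.41 to 1.07 (-0.41 without control replicate 1, -0.0065 without knockdown replicate 2). Library-size scaling gave -0.22 for ENSG00000229321, -0.0026 for MIR924HG and -0.11 for SNHG31. Exon circles only gave 1.19 for LINC-PINT, -0.32 for TTN-AS1 and -0.15 for NUTM2A-AS1. The planned share of CA-repeat letters beside back splices was not run, because no genome sequence was used here. Depth limits the set: 4869 of 5152 circles had under 10 counts.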
